A study of Caenorhabditis elegans with 6 samples.

Results

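The numbered cuticle collagens of Caenorhabditis elegans are the genes whose symbol is col- followed by a number. By that symbol in the WBcel235 annotation, 156 of the 19999 genes in the files were members, and all 156 had at least 1 count. Their RNA was compared between ddi-1(icb156) mutants and wild type in 6 libraries of total RNA from whole animals, 3 of each genotype. All animals were grown from bleached embryos to the L4 larval stage at 20°C on E. coli OP50, and RNA was taken with TRIzol and sequenced by BGI. The labels call the libraries of a genotype biological replicates.

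The cuticle is the collagen-rich outer coat of the worm, and its collagens carry long repeats in which glycine recurs at a fixed spacing and which wind into a triple helix. The epidermis makes a new cuticle before each molt, and individual collagen genes are switched on at their own point of the molting cycle and, in some cases, at a single stage of life. DDI-1 is an aspartic protease that cuts and so activates the transcription factor SKN-1A, which raises proteasome genes when the proteasome is impaired.

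The icb156 allele is a non-synonymous mutation found in a screen with the mutagen EMS, so the level of ddi-1 RNA does not check the labels. ddi-1 stood at 35.0, 35.3 and 35.5 CPM in the mutants, against 48.5, 50.3 and 48.6 CPM in wild type. CPM are counts scaled to a common library size. The strain list of the study gives the allele in 1 strain only, which also carries a transgene with a chil-27 promoter driving GFP and a col-12 promoter driving mCherry. The sources used here do not say whether the wild-type animals carry that transgene, and its effect cannot be told apart from that of the mutation or of other mutations left by the screen. In whole animals, fewer cells of a type and less RNA per cell cannot be told apart.

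The libraries held 28962104 to 36258118 estimated counts in the mutants and 40554395 to 47142002 in wild type. Wild-type replicate 2 stood apart. On the first principal component of all genes, which held 78.5% of the variance, it lay at 17.2, against 77.3 and 74.9 for the other wild-type libraries and -62.8 to -50.6 for the mutants. Its place is therefore given beside the results below. Summed TPM (counts divided by length and scaled to a common total) of 5 epidermis markers was 140 to 173 in the mutants and 120 to 220 in wild type, with the highest value in wild-type replicate 2. None of the 5 passed with all libraries, and 2 were higher without replicate 2. The yolk protein genes vit-1 to vit-6, which the intestine turns on as animals become adult, all fell. Their summed TPM was 58.2 to 95.7 in the mutants and 506 to 1018 in wild type, with replicate 2 the lowest of the wild-type libraries. Among markers of other tissues, 2 of 7 germline genes were lower (summed TPM 522 to 612 in the mutants and 652 to 835 in wild type), 1 of 6 body wall muscle genes was lower, 1 of 7 intestine genes was higher and 2 of 6 neuron genes were higher. Without replicate 2, 6 germline genes were lower, 5 neuron genes were higher and no muscle gene was lower. Over all genes tested, 13.4% were lower and 9.96% were higher, against 22.2% and 19.7% without replicate 2. The part of developmental timing in the results below was not tested.

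Collagen RNA as a whole took an overlapping share of the libraries in both genotypes, but the proportions of its members differed. The family held 3.78%, 3.63% and 4.13% of all TPM in the mutants and 4.62%, 3.43% and 4.07% in wild type. Of the 126 members with enough counts to test, 25 (19.8%) passed as higher and 37 (29.4%) as lower in the mutants, which left 64 without a call. The limits for a call were 0.01 on the p-value of edgeR's quasi-likelihood test and 0.1 after Benjamini-Hochberg adjustment. A gene could thus lie under 0.1 after adjustment and still have no call. Over all 15409 genes tested, 9.96% were higher and 13.4% were lower. The median log2 fold change of the tested members was -0.071 with quartiles of -2.04 and 0.74, beside a median of 0.0051 and quartiles of -0.26 and 0.35 over all genes. With the replicate number as a block the median member stood at 0.032, so its sign carries no direction. Without wild-type replicate 2, 36 members were higher and 54 were lower of 131 tested, where 19.7% of all genes were higher and 22.2% were lower. All 62 members that had passed passed again in the same direction.

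The falls were larger than the rises. The log2 fold changes of the 37 lower members ran from -7.58 to -1.14, and 24 of them lay below -4. Those of the 25 higher members ran from 0.62 to 4.71, and 2 lay above 4. In all 62 the CPM of the 3 mutant libraries did not overlap those of the 3 wild-type libraries, as for 12 of the 64 members that did not pass. The 62 were called from the same values, so this describes them and is no test. Over all genes tested, called or not, the groups did not overlap with the mutants higher for 23.4% and with the mutants lower for 23.5%.

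The make-up of the family's RNA differed between the genotypes. The 37 lower members held 10.04%, 9.84% and 8.07% of the family's summed TPM in the mutants, against 59.3%, 37.7% and 59.8% in wild type. The 25 higher members held 62.9%, 62.5% and 62.4% in the mutants, against 21.0%, 35.6% and 20.9% in wild type. These sets were chosen on the same libraries, so their shares describe the size of the change and are no test of it. In the mutants the most abundant members by mean TPM were col-3 (3987), col-167 (3142) and col-166 (2871). In wild type they were col-73 (3111), col-138 (2529) and col-3 (2114). The 10 most abundant members held 60.5% of the family's TPM in the mutants and 46.7% in wild type. col-3, col-73, col-117, col-125 and col-167 were among these 10 in both genotypes.

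**Figure D1:**
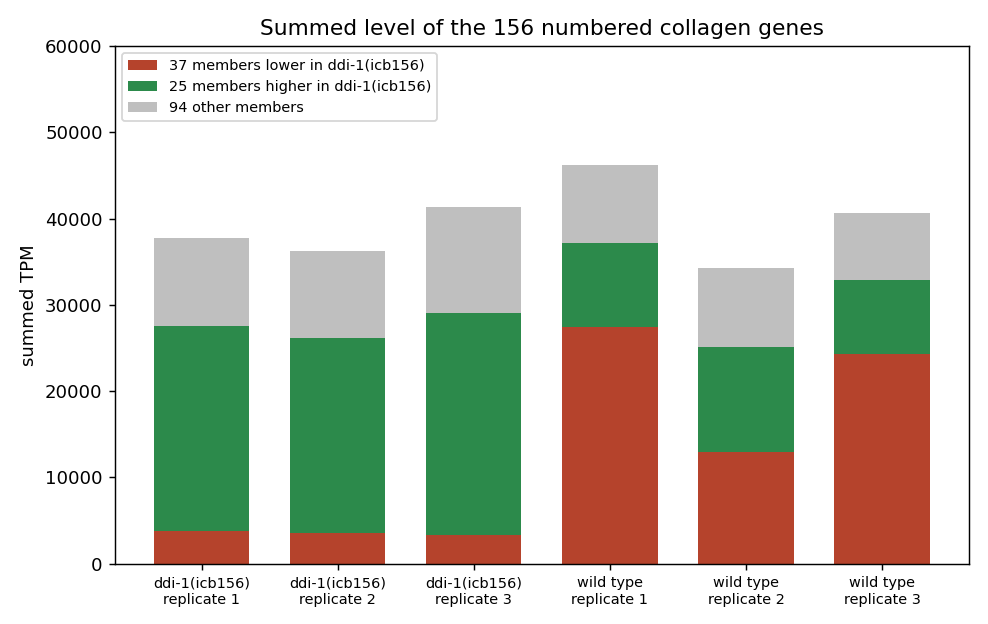
Summed TPM (vertical axis) of the 156 numbered collagen genes in each library (horizontal axis), stacked by whether a member was lower, higher or neither in ddi-1(icb156). The lower members held 8.07% to 10.04% of the total in the 3 mutant libraries and 37.7% to 59.8% in the 3 wild-type libraries, with wild-type replicate 2 the lowest of these.

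The largest falls were of genes that the mutants had all but lost. col-181 had 0.770, 0.541 and 1.09 CPM in the mutants, against 206, 75.8 and 175 CPM in wild type, a log2 fold change of -7.58 ± 0.53 (SE; adjusted p = 0.00089). The genotypes were far apart, and wild-type replicate 2 held 39.7% of the mean of the other wild-type libraries. col-88 had 1.005, 1.47 and 1.12 CPM in the mutants, against 287, 93.2 and 279.9 CPM in wild type (log2 fold change -7.50 ± 0.57, adjusted p = 0.0011). col-60 had 1.04, 0.927 and 1.24 CPM in the mutants, against 185, 60.5 and 146 CPM in wild type (log2 fold change -6.93 ± 0.52, adjusted p = 0.001). In both genes wild-type replicate 2 was again the lowest of its group and still far above every mutant library. Without that library the log2 fold changes were -7.91 for col-181, -7.86 for col-88 and -7.28 for col-60. col-181 lies on chromosome X at 12104930 to 12106102, col-88 on chromosome III at 41063 to 41971 and col-60 on chromosome I at 7105302 to 7106926, all on the plus strand of WBcel235. Their counts were whole in every library, so no reads were divided with another gene.

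The other falls among the 8 largest had the same shape. col-120 and col-124 had log2 fold changes of -6.31 and -6.23. col-152 was lower by -6.14 on the same scale from fewer counts, with 0, 10 and 6 counts in the mutants, against 698, 225 and 490 in wild type. In all 3 genes replicate 2 was the lowest wild-type library. col-124 shares exon positions with qns-1 on the other strand and had divided reads, and since the sources do not say whether the libraries keep strand, its count is less certain than those of the others.

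The 3 collagens listed for their expression in L4 animals, col-38, col-49 and col-63, all passed as lower. The list was drawn up with earlier results of these data known, so this is a description and no test. col-63 had 14.3, 22.6 and 15.5 CPM in the mutants, against 1693, 685 and 1431 CPM in wild type (log2 fold change -6.18 ± 0.44, adjusted p = 0.0009). col-38 had 49.1, 47.7 and 40.8 CPM in the mutants, against 2031, 998 and 1833 CPM in wild type (log2 fold change -5.14 ± 0.31, adjusted p = 0.00059). col-49 had 31.9, 36.7 and 27.7 CPM in the mutants, against 1307, 536 and 1098 CPM in wild type (log2 fold change -4.93 ± 0.37, adjusted p = 0.0011). Wild-type replicate 2 held 43.9%, 51.7% and 44.6% of the mean of the other wild-type libraries for col-63, col-38 and col-49, and remained above every mutant library. The summed TPM of the 3 genes was 91.1 to 125 in the mutants and 2381 to 5157 in wild type.

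The adult collagens were lower as well, as far as they could be measured. col-19, an adult-specific collagen that the timing factor LIN-29 activates at the larval-to-adult switch, had 0.737, 0.669 and 1.49 CPM in the mutants, against 65.0, 19.6 and 73.7 CPM in wild type. Its log2 fold change was -5.78 ± 0.65 (adjusted p = 0.0032), and replicate 2 held 28.3% of the mean of the other wild-type libraries. The adult collagens col-7 and col-62 lie beside each other and shared reads, and neither had enough counts in enough libraries to be tested with all 6 libraries. Without wild-type replicate 2 both were lower, col-7 by -4.77 (adjusted p = 3.4e-05) and col-62 by -4.52 (adjusted p = 1.4e-05) on the log2 scale. Summed over the pair, they had 6, 6 and 6 counts in the mutants, against 226, 13 and 164 counts in wild type, where replicate 2 was much closer to the mutants than to its own group. The dauer collagens col-2 and col-40 had at most 13 counts in any library and were not tested.

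A few members fell with wild-type replicate 2 in place among its group. col-79 had 20.8, 20.7 and 22.8 CPM in the mutants, against 116, 112 and 126 CPM in wild type (log2 fold change -2.46 ± 0.08, adjusted p = 6.9e-05). col-110 had 29.8, 27.5 and 33.7 CPM in the mutants, against 167, 189.9 and 184 CPM in wild type (log2 fold change -2.57 ± 0.10, adjusted p = 0.00011). The 3 wild-type libraries of each gene lay within a narrow band with no overlap, and these were the lower members of smallest p. col-110 shares exon positions with nspg-10 on the other strand.

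Among the rises, col-90 and col-156 showed the same tightness. col-90 had 1181, 1080.3 and 913 CPM in the mutants, against 121, 133 and 128 CPM in wild type (log2 fold change 3.05 ± 0.11, adjusted p = 0.00011). col-156 had 214, 169 and 196 CPM in the mutants, against 37.8, 34.5 and 32.4 CPM in wild type (log2 fold change 2.47 ± 0.11, adjusted p = 0.00018). Wild-type replicate 2 held 107% and 98.3% of the mean of the other wild-type libraries in these genes. col-90, on the plus strand of chromosome III at 7948838 to 7950068, shares exon positions with let-754 on the other strand and had divided reads. col-156, on the minus strand of chromosome V at 11449219 to 11450357, shares exon positions with mig-17 on the other strand, and its counts were whole. Reads from such shared positions cannot be told apart without strand, and reads were divided for col-90 but not for col-156.

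The largest rise among well-counted members was that of col-41. It had 1604, 1508 and 1513 CPM in the mutants, against 31.1, 113 and 46.6 CPM in wild type (log2 fold change 4.60 ± 0.51, adjusted p = 0.0032). The mutants were close to each other, and wild-type replicate 2 was the highest of its group at 290% of the mean of the others. col-54 had 148, 140.1 and 119.8 CPM in the mutants, against 10.6, 17.8 and 12.1 CPM in wild type (log2 fold change 3.34 ± 0.22, adjusted p = 0.00074), with the same order in wild type. col-158, col-146, col-39 and col-123 completed the 8 largest rises, with log2 fold changes of 2.94, 2.15, 2.09 and 1.82, and wild-type replicate 2 was the highest wild-type library in all 4. col-123 had 12 to 29 counts in the wild-type libraries, and it lost its call without mutant replicate 3 (adjusted p = 0.071) or wild-type replicate 3 (adjusted p = 0.088). col-36 had a log2 fold change of 4.71 from 24, 39 and 52 counts in the mutants, against 3, 1 and 1 in wild type. Its counts were too few for the rule on named genes, it was chosen after its values were seen, and it shares exon positions with dyf-13 on the same strand.

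**Figure D2:**
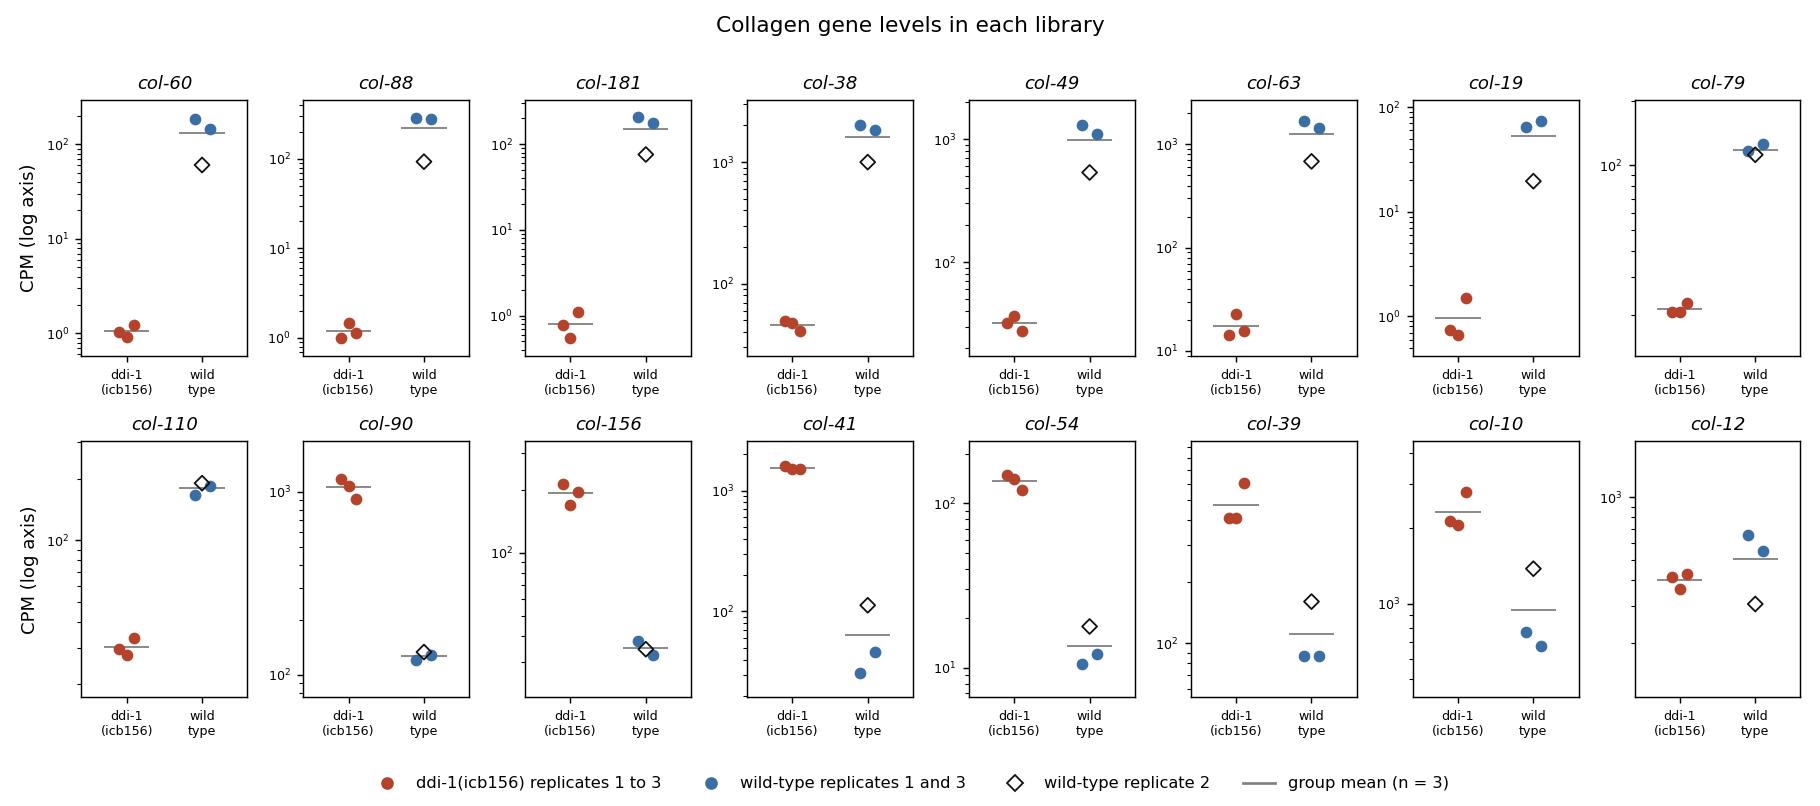
CPM (log axis) of 16 collagen genes in each library, with the 3 ddi-1(icb156) libraries left of the 3 wild-type libraries and gray lines at the group means (n = 3). Wild-type replicate 2 is the open diamond, which lies close to the rest of its group for col-79, col-110, col-90 and col-156, below the others for col-60, col-88, col-181, col-38, col-49, col-63, col-19 and col-12, and above them for col-41, col-54, col-39 and col-10.

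To describe where wild-type replicate 2 lay, its distance from the mean of wild-type replicates 1 and 3 was divided by the distance of the mutant mean from the same base, on log2 CPM. At this position 0 is the base and 1 is the mutant mean. It was taken only for members whose mutant mean lay at least 1 from the base. Replicate 2 was counted with the other wild-type libraries at a position between -0.25 and 0.25 and toward the mutants at 0.25 or more. The position uses the compared values themselves and is a description with no test. Of 42 members on the lower side, 17 (40.5%) had replicate 2 with the other wild-type libraries and 25 (59.5%) had it toward the mutants. Over all genes tested, 9.29% of 1991 on the lower side had it with the others and 89.6% toward the mutants. Of 27 members on the higher side, 6 (22.2%) had it with the others, 20 (74.1%) toward the mutants and 1, col-127, away from them, against 26.9%, 64.0% and 9.10% of 1351 over all genes. Members just inside the limit were col-178 and col-138 (position 0.24 each), and those just outside were col-20 and col-106 (position 0.26 each). col-20, col-106 and col-140 were the members of smallest p with replicate 2 toward the mutants, lower by -5.30, -5.42 and -5.07 on the log2 scale (adjusted p between 0.0016 and 0.0021). col-106 had 1.61, 1.62 and 2.52 CPM in the mutants, against 109, 36.9 and 99.7 CPM in wild type, and col-140 had the same order. col-127 had 11, 72 and 35 counts in the mutants, against 84, 0 and 0 counts in wild type, with reads divided with another gene, and did not pass.

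A low position in a gene with a large fall does not place replicate 2 at the level of its group. The 17 lower members counted with the other wild-type libraries had a median mutant difference of -6.02 and a median deviation of replicate 2 of -1.18. A second rule, chosen after seeing the data, asked instead that replicate 2 lie within 0.5 of the base on the log2 scale. By it only col-8, col-79 and col-110 remained with the other wild-type libraries on the lower side (7.14%, against 7.68% over all genes tested), and 39 members lay toward the mutants (92.9%, against 91.2%). The share of lower members with replicate 2 among its group thus stood above that of all genes by the first rule only. Of these 3, col-8 did not pass (adjusted p = 0.14). On the higher side col-3, col-36, col-90, col-92, col-156, col-177 and col-180 lay with the others and 19 lay toward the mutants, 25.9% and 70.4% of the 27, against 34.7% and 57.7% over all genes. Of the 126 members tested, replicate 2 was below both other wild-type libraries in 82, above both in 37 and between them in 7. It was at least 1 below the base in 46 members and at least 1 above it in 15, against 11.3% and 5.05% of all genes tested.

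**Figure D3:**
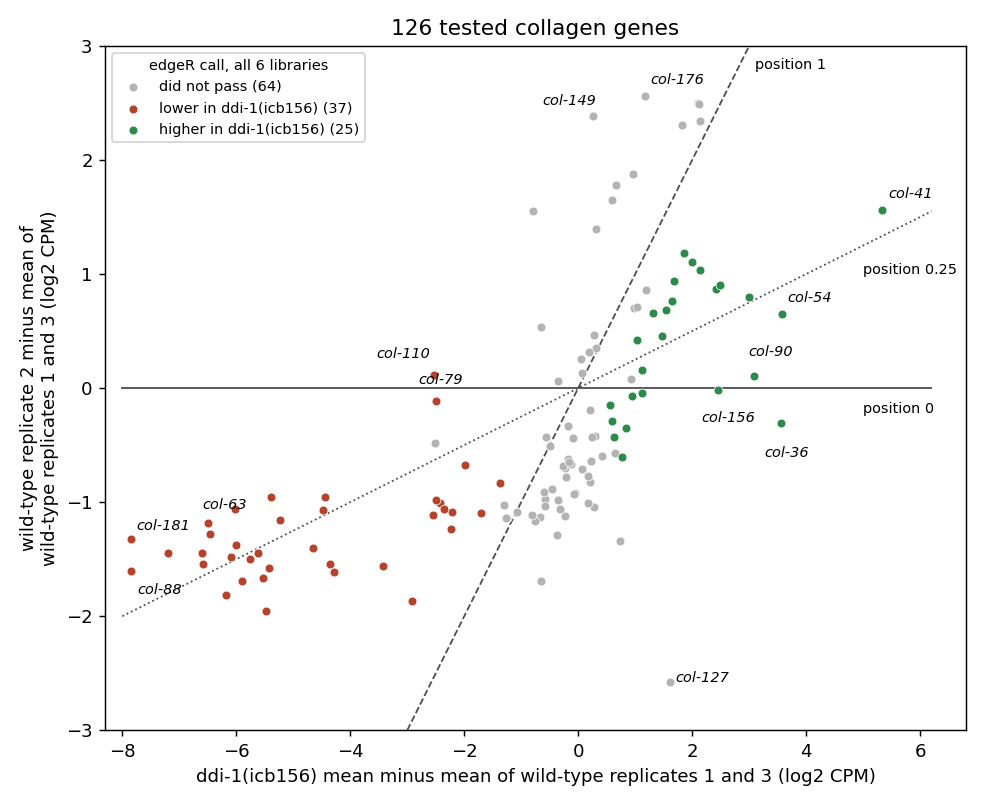
Each point is 1 of the 126 tested collagen genes, with the mean of the ddi-1(icb156) libraries (horizontal axis) and wild-type replicate 2 (vertical axis) each given as log2 CPM minus the mean of wild-type replicates 1 and 3. Lines mark positions 0, 0.25 and 1, and colours mark the call from all 6 libraries. The 37 lower members lie to the left, and replicate 2 is below the mean of the other wild-type libraries in all of them but col-110, above it in col-41 and near it in col-90 and col-156.

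Of the 64 members that did not pass, 14 (21.9%) were lower and 11 (17.2%) were higher once wild-type replicate 2 was left out, as were 11.5% and 13.2% of all 11803 genes that did not pass. Of these 25 members, 9 were also called the same way from all 6 libraries, by DESeq2 or with the replicate block, and the other 16 by neither. In 7 of those that became higher, replicate 2 lay at least 1 above the base on the log2 scale. col-42 had 222, 238 and 400.0 CPM in the mutants, against 61.998, 363 and 66.4 CPM in wild type (log2 fold change 0.81, adjusted p = 0.44, and 2.16, adjusted p = 0.00026, without replicate 2). The groups thus overlapped through replicate 2. The other 6 were col-46, col-98, col-103, col-128, col-147 and col-176, and their adjusted p without replicate 2 ran from 0.00014 to 0.014. col-149 had 171, 139 and 214 CPM in the mutants, against 107, 748 and 191 CPM in wild type, so that only replicate 2 stood out, and it passed with neither set of libraries. The furrow collagen dpy-7, needed for body shape and made early in each molting cycle, had a related order, with 148, 182 and 163 CPM in the mutants, against 81.5, 314 and 118 CPM in wild type (log2 fold change -0.056, adjusted p = 0.94). Among those that became lower, col-89 had 18.5, 17.5 and 17.6 CPM in the mutants, against 40.7, 17.6 and 34.7 CPM in wild type (log2 fold change -0.79, adjusted p = 0.088, and -1.08, adjusted p = 2.7e-05, without replicate 2), and it was also lower by DESeq2 with all libraries (adjusted p = 0.028). Here replicate 2 lay within the range of the mutants.

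The reporter collagen col-12 and the genes listed beside it as paralogs, col-13 and col-10, did not move as a set. col-12, whose promoter drives mCherry in the transgene, had 416, 362 and 429 CPM in the mutants, against 661, 308 and 551 CPM in wild type. The groups overlapped through replicate 2, and col-12 did not pass (log2 fold change -0.33 ± 0.27, adjusted p = 0.39), though without that library it was lower by -0.59 (adjusted p = 0.0021). Its neighbour col-13 had 269, 255 and 325 CPM in the mutants, against 219, 139 and 201 CPM in wild type (log2 fold change 0.60 ± 0.18, adjusted p = 0.055). With the replicate number as a block, col-13 was higher (log2 fold change 0.62, adjusted p = 0.028). It was also higher by DESeq2 (adjusted p = 0.017), with library size alone (adjusted p = 0.034) and without wild-type replicate 2 (0.43, adjusted p = 0.013). Leaving out any other library gave col-13 no call. Both col-12 and col-13 had reads divided with other genes. col-10 rose to 2133, 2065 and 2793 CPM in the mutants, against 766, 1379 and 673 CPM in wild type (log2 fold change 1.31 ± 0.29, adjusted p = 0.028), with replicate 2 the highest of its group. It did not pass without mutant replicate 1 (adjusted p = 0.09), mutant replicate 3 (adjusted p = 0.078) or wild-type replicate 1 (adjusted p = 0.081). col-99, a transmembrane collagen that is no part of the cuticle, had 35.4, 39.2 and 44.0 CPM in the mutants, against 31.9, 44.7 and 33.1 CPM in wild type, and did not pass (log2 fold change 0.11, adjusted p = 0.61).

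Members on published response lists were looked up in the same fit. The oomycete recognition response (ORR) is the set of genes induced when worms detect oomycetes, and 6 collagens are on its list, which comes from other samples. Of these, col-60, col-88, col-120 and col-138 were lower, none was higher, and the median log2 fold change was -5.26. Among all tested members of the family, 29.4% were lower and 19.8% were higher. Beside this list and the next, 13.4% of all genes tested were lower and 9.96% were higher, against 22.2% and 19.7% without replicate 2. The counts cover only the collagens of each list. col-138 had 115, 103 and 103 CPM in the mutants, against 2589, 1145 and 2227 CPM in wild type (log2 fold change -4.21 ± 0.32, adjusted p = 0.0011), again with replicate 2 lowest of its group. col-157 (log2 fold change 0.18, adjusted p = 0.65) and col-168 (0.71, adjusted p = 0.069) did not pass, and col-168 was higher without replicate 2 (0.98, adjusted p = 0.0011). The list of genes induced by the proteasome inhibitor bortezomib holds 5 collagens. None of the 4 tested, col-42, col-45, col-84 and col-128, passed, with a median of 0.43, and col-42 and col-128 were higher without replicate 2.

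Collagen genes that lie beside each other did not always move together. With gaps of at most 10 kb, 50 of the 156 members fell into 21 clusters. In 6 clusters members were higher and none was lower, in 4 members were lower and none was higher, in 2 members passed in both directions, and in 9 none passed. On chromosome II, col-17 (4866436 to 4867576), col-20 and col-73 (ending at 4873129) share the minus strand. col-17 was higher (log2 fold change 0.95 ± 0.18), while col-20 (-5.30 ± 0.47) and col-73 (-1.14 ± 0.24) were lower. col-17 had 3042, 2839 and 2614 CPM in the mutants, against 1677, 1084 and 1624 CPM in wild type, and col-20 had 2.48, 2.16 and 3.04 CPM in the mutants, against 133, 46.7 and 122 CPM in wild type. The directions thus differed between genes whose counts all held divided reads. Without mutant replicate 2 or 3 or wild-type replicate 3, col-73 did not pass.

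The other mixed cluster was also on chromosome II, on the plus strand. col-79 (10703613 to 10704572) was lower and col-39 (10704916 to 10706019) was higher, and both had whole counts. col-39 had 407, 409 and 603 CPM in the mutants, against 87.2, 159.7 and 87.2 CPM in wild type (log2 fold change 2.09 ± 0.30, adjusted p = 0.0074). The third gene, col-80, had 8.84, 9.14 and 12.02 CPM in the mutants, against 19.4, 50.8 and 15.4 CPM in wild type and did not pass (log2 fold change -1.51, adjusted p = 0.056), though it was lower without replicate 2. Clusters with all members higher were col-92, col-93 and col-94 on chromosome III (log2 fold changes 1.17, 0.62 and 0.95) and col-144, col-145 and col-10 on chromosome V (1.27, 0.76 and 1.31). col-178 and col-179 on chromosome X were both lower (-5.72 and -4.11). By chromosome, 14 of 33 tested members on chromosome IV were lower and 3 were higher, while 3 of 29 on chromosome V were lower and 7 were higher. Lower and higher members were 4 and 2 of 14 on chromosome I and 7 and 3 of 19 on II. They were 3 and 4 of 11 on III and 6 and 6 of 20 on X. Over the whole family 29.4% were lower and 19.8% were higher. Shares of all genes by chromosome were not computed, and a difference between chromosomes was not tested.

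**Figure D4:**
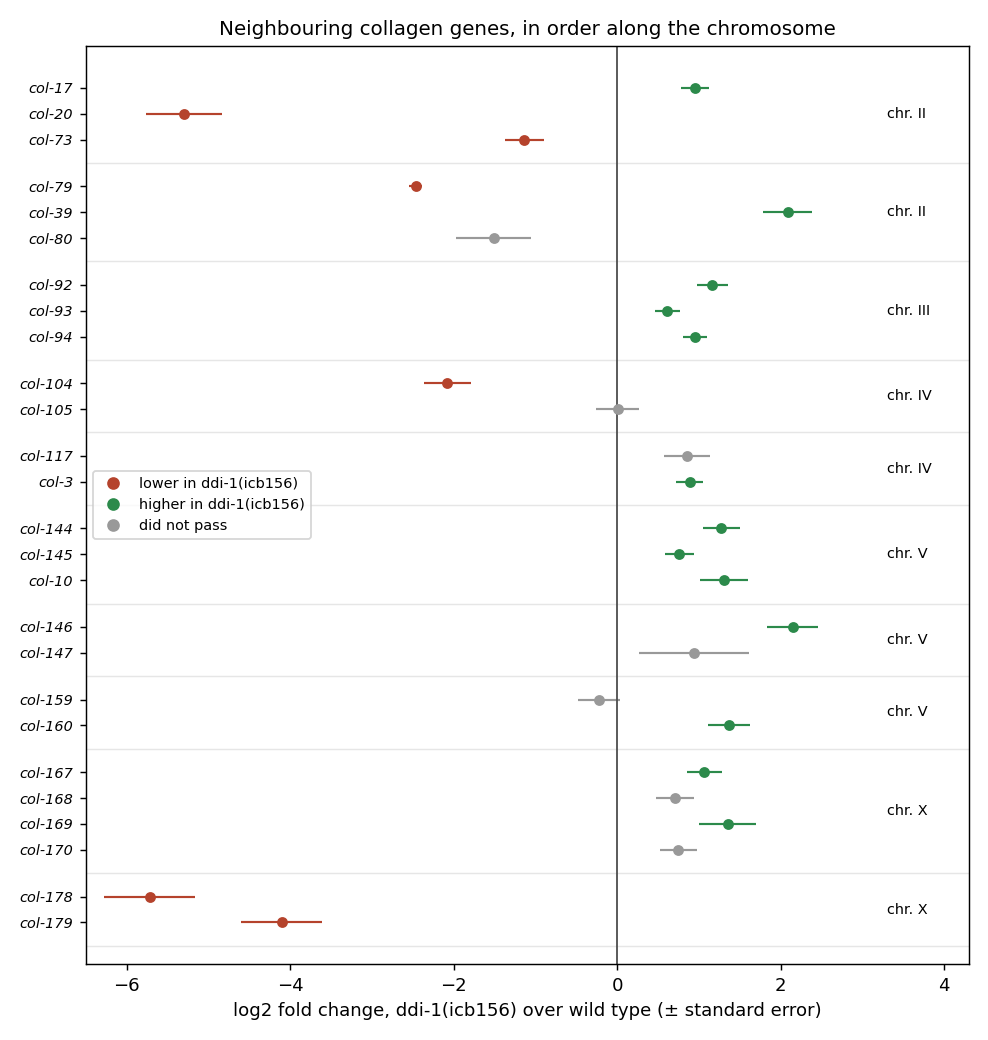
Log2 fold change of ddi-1(icb156) over wild type (horizontal axis, bars are ± 1 standard error) for tested collagen genes in clusters with gaps of at most 10 kb, at least 2 tested members and a member that passed, in their order along each chromosome. Members passed in opposite directions within the clusters of col-17, col-20 and col-73 and of col-79 and col-39, while all 3 members of the clusters of col-92 and col-144 were higher.

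Reads that match several genes touched a larger share of the members that rose than of those that fell. Of the 156 members, 55 had counts that were not whole in some library, the sign that reads were divided with another gene. Counts were whole for 26 of the 37 lower members and for 8 of the 25 higher members. Of the 25 rises, 17 therefore had some reads divided with another gene, and the share of reads divided was not measured. These 17 include the most abundant member of the mutants. That member, col-3, had 3661, 3084 and 3876 CPM in the mutants, against 1881, 2294 and 1566 CPM in wild type (log2 fold change 0.89 ± 0.16, adjusted p = 0.016). Exons of 29 tested members overlap a protein-coding gene, and 12 of these passed. Of all 126 tested members, 29.4% were lower and 19.8% were higher, against 13.4% and 9.96% of all genes tested.

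Without wild-type replicate 2, more of the collagens named for the shape of their mutants were called higher, as over all genes. Of all genes tested, 9.96% were higher and 13.4% were lower, against 19.7% and 22.2% without replicate 2. Of 20 tested of the 21 on the list, 15 had no call, and the median log2 fold change was -0.093. There were 4 that were lower and 1 that was higher, and without replicate 2 there were 4 and 6. The lower ones were lon-3 and the blister collagens bli-1, bli-2 and bli-6, whose loss lifts the layers of the adult cuticle apart. bli-1 had 59.6, 52.5 and 61.9 CPM in the mutants, against 708, 891 and 863 CPM in wild type (log2 fold change -3.82 ± 0.12, adjusted p = 7.6e-05). bli-2 had 46.2, 45.3 and 47.1 CPM in the mutants, against 519, 520.1 and 581 CPM in wild type (log2 fold change -3.55 ± 0.08, adjusted p = 1.4e-05). As for col-79 and col-110, wild-type replicate 2 lay with or above the other wild-type libraries in bli-1 and bli-2. In bli-6 it lay below them, with 23.7, 26.2 and 24.1 CPM in the mutants, against 1395, 721 and 1269.9 CPM in wild type. rol-6, a roller collagen, was higher (log2 fold change 0.68).

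Among 12 genes for collagen processing the median was -0.29, and 2 passed as higher and 3 as lower (2 and 4 without replicate 2). Beside this list and those below, 9.96% of all genes tested were higher and 13.4% were lower, against 19.7% and 22.2% without replicate 2. mlt-7, a peroxidase needed for molting, had 88.3, 107 and 121 CPM in the mutants, against 37.0, 35.3 and 38.1 CPM in wild type (log2 fold change 1.52 ± 0.12, adjusted p = 0.0011). tsp-15, a tetraspanin that acts with the dual oxidase of cuticle crosslinking, was also higher (0.86). The prolyl 4-hydroxylase subunit genes dpy-18 and phy-3 and the thioredoxin gene dpy-11 were lower (-0.54, -1.58 and -0.75). Among 12 epidermal transcription factors the median was 0.034, and 1 passed as higher and 1 as lower, while without replicate 2 the counts were 5 and 0. The nuclear receptor gene nhr-25, needed for molting, had 29.01, 31.3 and 27.3 CPM in the mutants, against 7.75, 7.74 and 6.99 CPM in wild type (log2 fold change 1.96 ± 0.10, adjusted p = 0.00031), with replicate 2 inside its group. The molting timer gene lin-42 was lower (-0.29, adjusted p = 0.042) but did not pass without replicate 2, and lin-29 did not pass (0.11, adjusted p = 0.70). Among 14 genes of the molting cycle 1 passed as higher and 2 as lower (median -0.16), against 6 and 3 without replicate 2, and replicate 2 lay 0.59 above the base at the median of that list.

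The 30 members that were not tested had few reads in every library. Apart from col-7 and col-62, none had more than 19 counts in any library. Without wild-type replicate 2, 5 of the 30 could be tested, and col-7, col-62 and col-135 were lower. col-135, named after its values were seen, had 3, 5 and 3 counts in the mutants, against 17, 7 and 19 counts in wild type (log2 fold change -1.95, adjusted p = 0.0083, without replicate 2). col-9, col-37, col-102 and col-114 had no count over the mutant libraries, with 3, 2, 3 and 10 counts over wild type, and col-171 had 2 counts over the mutants and none over wild type.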

How the data were processed

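Total RNA of L4 animals was sequenced in 3 ddi-1(icb156) and 3 wild-type libraries, grouped by their labels. The authors estimated counts per transcript with kallisto on the WS283 transcriptome and tested them with Sleuth (versions not given in the sources used here), and they deposited these estimated counts with effective lengths, neither normalized nor pooled. Of 37058 transcripts, 30413 were joined to the WBcel235 annotation of Ensembl by transcript ID, 6633 by sequence name and 12 by neither.

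For each gene the estimated counts of its transcripts were added up and rounded. Counts were called not whole when the sum lay more than 0.001 from a whole number. With edgeR 4.0.16 (R 4.3.3), filterByExpr left 15409 genes to test. Libraries were scaled by TMM (factors 0.9692 to 1.072), and the genotypes were compared with the robust quasi-likelihood test, two-sided, with Benjamini-Hochberg adjustment over the genes tested. The fit had 4 residual degrees of freedom and a biological coefficient of variation of 0.202. Standard errors were derived from that test, as the absolute log2 fold change divided by the square root of its F statistic. The scripts were tested on simulated data. TPM were computed from estimated counts and effective lengths. Log2 CPM use a prior count of 2.

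Deviations of same-numbered libraries from their group means correlated at 0.114, 0.309 and 0.185 over genes, each over 0.1. Mutant replicate 3 and wild-type replicate 1 correlated at 0.115. The labels do not say what a number stands for. The reported fit is not paired. A fit with the number as a block is given for the counts of calls, the median and col-13. It also called col-68 lower (log2 fold change -0.97, adjusted p = 0.042), which had no call in the reported fit. Not every member that gained a call with the block is named. All 62 calls held with the number as a block.

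Named genes were 4 markers of the family (col-60, col-88, col-90 and col-181), members on the stage, reporter, transmembrane, ORR and bortezomib lists, the 8 largest rises and falls among passing members without overlap and with a mean of at least 50 counts in the higher group, and the 3 of smallest p by position of wild-type replicate 2. The members and lists were chosen with earlier results of these data known. Alternatives were DESeq2 1.42.0 and its size factors, library size alone, no filter on counts, a stricter filter of 1 CPM in 3 libraries, the replicate block, leaving out each library, and other limits on the position of replicate 2.

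Other lists, compiled from general knowledge, were the shape collagens, collagen processing genes, epidermal transcription factors, molting cycle genes and markers of epidermis and of other tissues.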

Additional observations from a re-analysis of the deposited data

How the results depend on the processing

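The number of collagen genes called moved little with the tool and most when wild-type replicate 2 was left out. Leaving it out added calls and removed none. Over all genes tested it raised the share called higher from 9.96% to 19.7% and the share called lower from 13.4% to 22.2%. With DESeq2's own test 29 members were higher and 42 were lower, and with no filter or the stricter filter 25 and 24 were higher and 39 and 36 were lower. With the replicate number as a block, 26 were higher and 39 were lower. Leaving out each library in turn gave 19 to 36 higher and 34 to 54 lower members, with the highest counts without wild-type replicate 2. Of the 62 calls, 19 of the 25 higher and 33 of the 37 lower held in each of these alternatives in which the gene was tested. Restricted to members with whole counts, an alternative added after seeing the data, 8 were higher. The median log2 fold change of the members was -0.071 in the reported analysis, 0.012 with library size alone and 0.032 with the replicate block, and it ran from -0.19 (without wild-type replicate 2) to 0.048 (without wild-type replicate 1) when libraries were left out. Library size alone moved the share of higher among all calls to 53.2%, against 42.6%, and the median of all genes to 0.09. With a limit of 0.5 on the position, 49 members had replicate 2 with the other wild-type libraries and 19 toward the mutants, against 23 and 45 at 0.25. With the limit of 0.5 on the log2 distance, also added later, 10 lay with the other wild-type libraries. Among named genes that did not pass, 3 changed sign when a library was left out. Their log2 fold changes ran from -0.20 (without mutant replicate 3) to 0.17 (without mutant replicate 1) in col-45, from -0.34 (without wild-type replicate 1) to 0.92 (without wild-type replicate 2) in col-128, and from -0.076 (without wild-type replicate 2) to 0.43 (without wild-type replicate 1) in col-157. The cause of these changes was not tested. col-36 and col-123 rest on few counts. Of the 30 members not tested, 5 could be tested without wild-type replicate 2, and 3 of them were lower.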
